A study of Mus musculus with 5 samples.

Results

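Cluster 6 is 1 of 6 clusters of pancreatic beta cells, the insulin-secreting cells of the islet, in a single-cell RNA survey of mouse islets. Its members are all cells that carry the number 6 in the deposited cluster table. There are 1469 of them among 11607 beta cells (12.7%) and 18221 cells of every type (8.06%), and each of the 1469 is annotated as a beta cell. The defining beta cell transcripts Ins1 and Ins2, the mouse insulin genes, could not be checked, because the tables used here give a cell type, a cluster, a library and an embedding position per cell, and no expression per gene. The name of the cluster therefore rests on the deposited annotation.

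The mice carried floxed Atf6a alleles (Atf6a fl/fl). Controls had no Cre, and the knockout mice, labelled cKO, also carried RIP-Cre, in which a rat insulin promoter drives the recombinase. Both genotypes received either a normal diet with 10% of energy from fat or a high-fat diet with 60%, starting at 6 weeks of age, and islets were collected at 22 weeks. Each library pooled hand-picked islets of 2 mice. There were 5 libraries: 1 of control mice on normal diet, 1 of control mice on high-fat diet, 1 of cKO mice on high-fat diet, all of batch 1 by the batch field of the labels, and 2 of cKO mice on normal diet, from batches 1 and 2. Loss of Atf6a in the cKO cells was not analysed here.

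ATF6α is a transmembrane protein of the endoplasmic reticulum. When unfolded proteins accumulate there it moves to the Golgi, is cut, and releases a fragment that enters the nucleus and activates genes for chaperones and protein folding. Beta cells make very large amounts of proinsulin and lean on this response when insulin demand rises, as it does during high-fat feeding. Islet beta cells are known to differ among themselves in maturity, secretory load and stress signalling, and clusters in single-cell data group cells whose overall transcript profiles resemble each other.

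The libraries held between 40 and 7998 cells, and between 31 and 4841 beta cells. The batch 1 cKO normal-diet library, with 40 cells, stood apart from the rest and contributed no cell to cluster 6. Of all cell barcodes, 140 occurred in more than 1 library. Among cluster 6 cells 25 (1.70%) had such a barcode, and for 1 barcode both cells were in cluster 6. Intervals given below are 95% intervals and cover counting error only, not differences between mice or preparations. Where a mean share includes the library of 40 cells, the interval leaves out the counting error of that library. Because 3 of the 4 groups had 1 library, differences between groups have no replicate check unless a test over the 5 libraries is named.

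Cluster 6 took its largest share of beta cells in control mice on normal diet. In that library 763 of 4406 beta cells belonged to it, a share of 17.3% (exact Clopper-Pearson interval 16.2 to 18.5%). The control high-fat library had 437 of 4841 beta cells, or 9.03% (8.23 to 9.87%). The cKO high-fat library had 241 of 2093, or 11.5% (10.2 to 12.96%). The batch 2 cKO normal-diet library had 28 of 236, or 11.9% (8.03 to 16.7%). Batch 1 of cKO normal diet had 0 of 31, which allows a share of up to 9.68% by a limit of 3 cells and up to 11.2% by the exact interval. In order, the control normal-diet share was the highest, the batch 2 cKO normal-diet and cKO high-fat shares came next and overlapped in their intervals, and the control high-fat share was the lowest of the 4 libraries with members. The interval of batch 2 also overlapped that of the control high-fat library and, narrowly, that of the control normal-diet library.

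**Figure D1:**
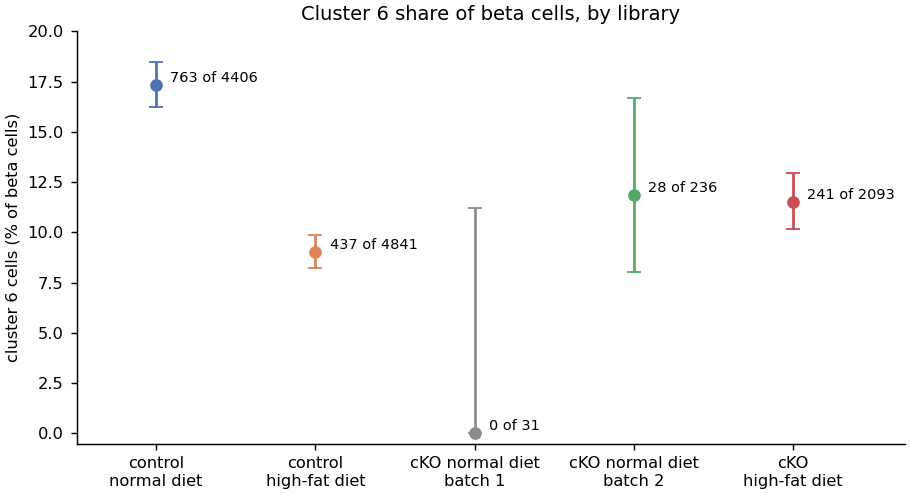
Share of cluster 6 among beta cells (y axis, percent) in each of the 5 libraries (x axis). Points are shares, bars are exact 95% binomial intervals and the text beside each point gives cluster 6 cells of beta cells. The control normal-diet library is highest at 17.3% and the control high-fat library lies at 9.03%.

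The standing of cluster 6 among the beta clusters moved accordingly. By cell number it was the second of the 6 beta clusters in the control normal-diet library, the fifth in the control high-fat library and the fourth in both the batch 2 cKO normal-diet and the cKO high-fat libraries. The control normal-diet library supplied 51.9% of all cluster 6 cells but 38.0% of all beta cells. The control high-fat library supplied 29.7% of cluster 6 and 41.7% of beta cells. The cKO high-fat library supplied 16.4% and 18.0%, and batch 2 of cKO normal diet 1.91% and 2.03%. Cluster 6 is thus a class that every library with more than 31 beta cells contributed to, weighted toward control islets on normal diet.

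Control mice on the 2 diets give the share of the cluster when Atf6a is intact. With 1 library per diet, diet cannot be told apart from library. The share was lower on high-fat diet, with a log2 ratio of -0.94 (-1.10 to -0.78), that is 1.92-fold lower (1.72 to 2.14). The difference was 8.29 percentage points. The only replicate libraries, those of cKO mice on normal diet, had a mean of 5.93% ± 8.39 (SD, n = 2), and of 10.8% ± 1.55 (SD, n = 2) with the 0 of 31 set to 3 cells. The difference lay just under the first standard deviation and above the second. Both rest on 2 libraries of different batches, 1 of them with 31 beta cells, and the second on a set count. How the difference compares with replicate spread therefore cannot be told. The same holds for the differences between genotypes given next. Shares within a library sum to a constant, so part of any lower share can be the counterpart of a higher one elsewhere. With all cells of the library as the denominator, cluster 6 was 9.54% (8.90 to 10.2%) on normal and 6.55% (5.97 to 7.18%) on high-fat diet, a smaller log2 ratio of -0.54.

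The genotypes can be compared on high-fat diet within batch 1. There the cKO share exceeded the control share by a log2 ratio of 0.35 (0.14 to 0.57), or 1.28-fold (1.10 to 1.48). The difference of 2.49 percentage points lies between the 2 standard deviations, 1.55 and 8.39. Its size depended on the other beta clusters: the log2 ratio was 0.71 among beta cells without cluster 9 and 1.57 (1.37 to 1.77) among beta cells without clusters 3 and 9, which held 42.0% and 23.1% of cKO and 17.7% and 1.20% of control beta cells. As a share of all cells, cluster 6 was 9.71% (8.57 to 10.9%) of the cKO and 6.55% of the control high-fat library.

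On normal diet the cKO share lay below the control share in each of the 2 cKO libraries. For the mean of both libraries the log2 ratio was -1.55 (-2.06 to -1.04), but the 0 of 31 beta cells in batch 1 enters that mean. A share of 0 adds no variance here, so that interval is too narrow. With the batch 2 library alone the log2 ratio was -0.55 (-1.06 to -0.04), or 1.46-fold lower (1.02 to 2.08), across batches. With the 0 set to its limit of 3 cells, the log2 ratio of the mean was -0.69, with an interval of -1.44 to 0.07 that includes no difference. The 5.45 points between the control and batch 2 libraries also lie between 1.55 and 8.39.

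For cKO mice the direction between diets depended on the normal-diet library. The high-fat share of 11.5% differed from the batch 2 normal-diet share of 11.9% by 0.350 percentage points, a log2 ratio of -0.04 (-0.57 to 0.49). Against the mean of both normal-diet libraries the log2 ratio was 0.96 (0.43 to 1.49), in the opposite direction, which the library of 31 beta cells decides. This interval leaves out the counting error of that library. With its 0 set to 3 cells the log2 ratio was 0.10 (-0.67 to 0.87). Against that library alone no ratio could be formed. Divided by the control diet ratio, the cKO diet ratio was 1.90 on the log2 scale (1.34 to 2.45) with both normal-diet cKO libraries and 0.90 (0.34 to 1.45) with batch 2 alone. The interval with both libraries again leaves out the counting error of the library of 31 beta cells.

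Over the 5 libraries no test separated the groups. The mean share was 7.79% ± 6.75 (SD, n = 3) in cKO and 13.2% ± 5.86 (SD, n = 2) in control libraries (difference -5.38 points, two-sided exact permutation p = 0.60, Benjamini-Hochberg adjusted p over the 2 tests = 1). It was 10.3% ± 1.76 (SD, n = 2) in high-fat and 9.73% ± 8.85 (SD, n = 3) in normal-diet libraries (difference 0.54 points, two-sided exact permutation p = 1, adjusted p = 1). The groups overlapped in both comparisons. With 3 against 2 libraries the smallest p these tests can give is 0.1.

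A ratio of 2 clusters does not depend on the remaining classes of a library, so cluster 6 was also set against clusters 1 and 5. Cluster 1 is the largest beta cluster of the series, with 4360 cells, and cluster 5 has 1722. In the control normal-diet library there were 0.312 cells of cluster 6 per cell of cluster 1 (interval 0.288 to 0.339). The control high-fat library had 0.254 (0.228 to 0.283) and the batch 2 cKO normal-diet library 0.318 (0.2002 to 0.492). The cKO high-fat library had 2.17 (1.73 to 2.74), from 241 cells of cluster 6 and 111 of cluster 1. Cluster 6 was therefore outnumbered by cluster 1 in 3 of the 4 libraries with members and outnumbered it in the cKO high-fat library alone.

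Compared between genotypes on high-fat diet, the number of cluster 6 cells per cluster 1 cell was 8.54-fold higher in the cKO library (6.66 to 10.9, log2 3.09). Between diets within cKO mice it was 6.82-fold higher on high-fat diet than in batch 2 on normal diet (4.22 to 11.0, log2 2.77). On normal diet the genotypes had a log2 ratio of 0.03 (-0.60 to 0.65), and in control mice the high-fat value was lower, with a log2 ratio of -0.30 (-0.49 to -0.10). Most of the high-fat difference between genotypes lies in cluster 1, which was 5.30% of cKO and 35.5% of control beta cells, against 11.5% and 9.03% for cluster 6. The batch 1 cKO normal-diet library had no cell of either cluster and gives no ratio.

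**Figure D2:**
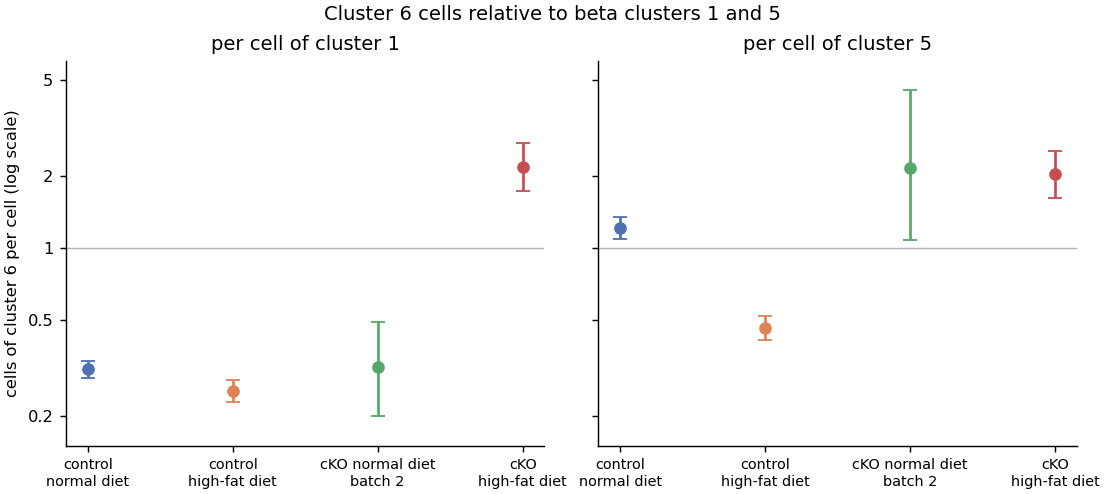
Cells of cluster 6 per cell of cluster 1 (left) and per cell of cluster 5 (right), on a log axis, in the 4 libraries that contain cluster 6 cells. Points are ratios, bars are exact 95% counting intervals and the grey line marks equal numbers. The cKO high-fat library is the one above the line at left (2.17), and the control high-fat library is the one below it at right (0.465).

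Relative to cluster 5 the control high-fat library was the one that stood out among the libraries with cluster 6 cells. There were 1.21 cells of cluster 6 per cell of cluster 5 (1.09 to 1.35) in the control normal-diet library and 0.465 (0.414 to 0.521) in the control high-fat library. The batch 2 cKO normal-diet library had 2.15 (1.08 to 4.53) and the cKO high-fat library 2.03 (1.62 to 2.54). The batch 1 cKO normal-diet library had 0 cells of cluster 6 beside 21 of cluster 5, for which the interval ends at 0.192. In control mice the value was lower on high-fat diet, with a log2 ratio of -1.38 (-1.61 to -1.16), and on high-fat diet it was 4.36-fold higher in cKO than in control mice (3.40 to 5.58, log2 2.12). On normal diet the cKO over control log2 ratio with batch 2 was 0.83 (-0.13 to 1.79), and in cKO mice the diets differed by -0.09 (-1.09 to 0.91).

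The other beta clusters complete the picture. Per cell of cluster 3 there were 4.46 cluster 6 cells (3.78 to 5.30) in the control normal-diet library, 0.511 (0.454 to 0.574) in the control high-fat library, 0.491 (0.301 to 0.785) in batch 2 of cKO normal diet and 0.274 (0.237 to 0.317) in the cKO high-fat library. Per cell of cluster 7 these values were 2.32, 0.525, 7 and 0.931, the third of them from 4 cells of cluster 7. Per cell of cluster 9 they were 10.7, 7.53, 0.609 and 0.498. Cluster 6 was thus the larger of the pair against clusters 3, 5, 7 and 9 in the control normal-diet library, and smaller than clusters 3, 5 and 7 in the control high-fat library. Cluster 9 exceeded it in both cKO libraries that hold cluster 6 cells and in neither control library.

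In the deposited embedding, a 2-dimensional UMAP map in which nearby points tend to have similar profiles, cluster 6 lay between clusters 5 and 1. Position on the map and cluster number were both derived from the cells' transcript profiles, so position is a description and was not tested. Distance on a UMAP is in arbitrary units and is not distance in expression. The median point of cluster 6 was 3.03 units from that of cluster 5 and 6.10 units from that of cluster 1. These distances are 1.85 and 3.72 times the spread of cluster 6, the median distance of its cells from their median point (1.64 units). The median points of the remaining beta clusters were 9.003 (cluster 9), 10.4 (cluster 3) and 12.7 units (cluster 7) away. Among clusters of other cell types, acinar cells (2.82 units) and delta cells (5.53 units) had the nearest median points.

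**Figure D3:**
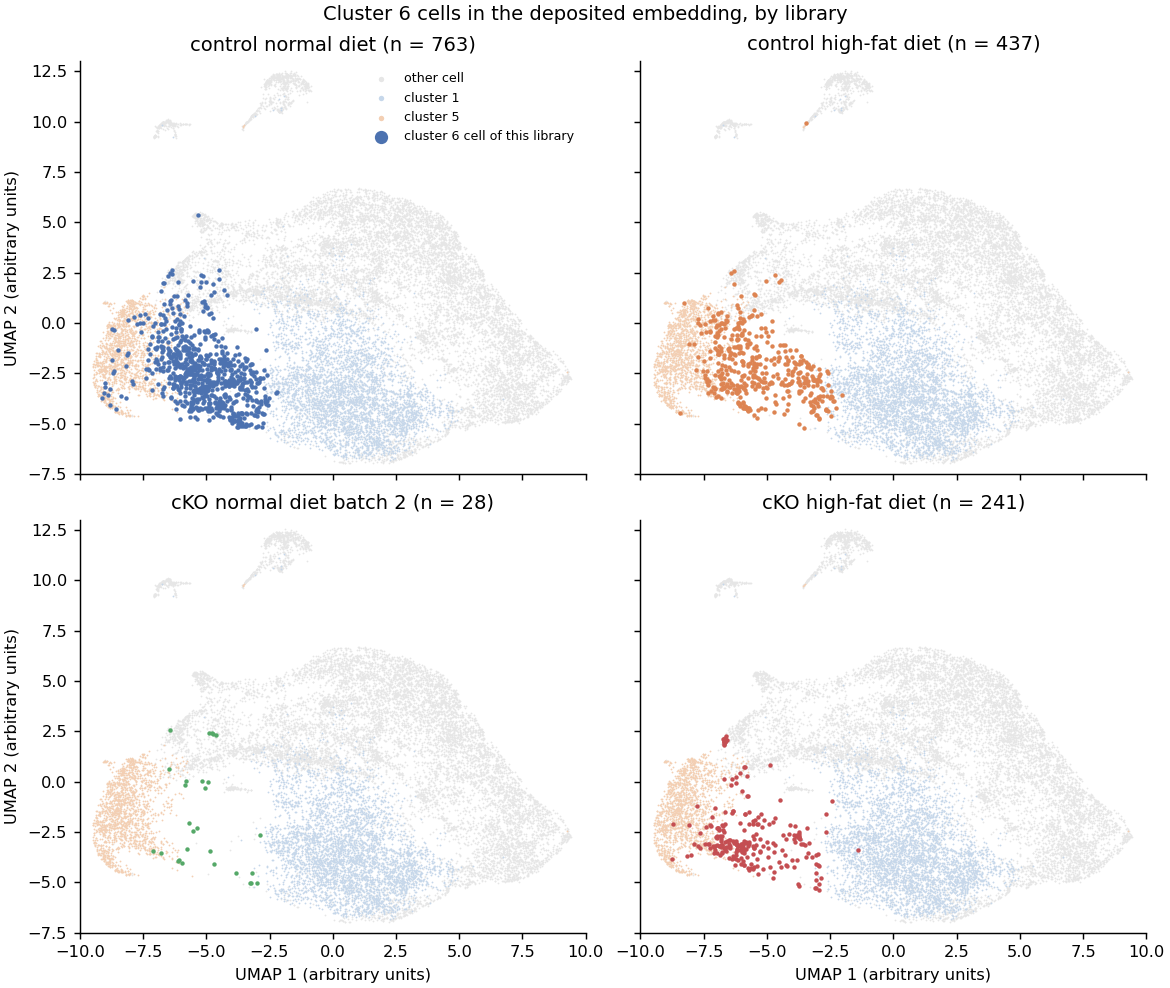
Deposited UMAP embedding (both axes in arbitrary units), 1 panel for each library that contains cluster 6 cells. Coloured points are that library's cluster 6 cells, drawn over all cells outside cluster 6 in grey, with cluster 1 in pale blue and cluster 5 in pale orange. Most cluster 6 cells lie between clusters 5 and 1, sparsely in the batch 2 panel with 28 cells, and 15 cells of the cKO high-fat library form a small group above that space near UMAP 2 = 2.07.

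Among the 30 nearest neighbours of each cluster 6 cell, 80.3% were cluster 6 cells themselves. Cluster 5 gave 11.6%, delta cells (cluster 4, which make somatostatin) 3.11%, cluster 1 2.09%, alpha cells of cluster 8 (which make glucagon) 1.63% and cluster 3 0.889%. Of all neighbours outside the cluster, 59.0% belonged to cluster 5, 15.8% to delta cluster 4 and 10.6% to cluster 1. Contact with cluster 5 was therefore closer than with delta cluster 4 or cluster 1. At least 1 neighbour from cluster 5 occurred in 35.1% of cluster 6 cells and at least 1 from cluster 1 in 12.1%. Beta cells of any cluster made up 94.9% of the neighbours.

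The contact zone differed between libraries. Cluster 5 supplied 8.74% of the neighbours of control normal-diet cells, 14.8% of control high-fat cells, 15.5% of cKO high-fat cells and 7.38% of the 28 batch 2 cKO normal-diet cells. At least 1 cluster 5 neighbour was found for 25.8% of the control normal-diet, 43.2% of the control high-fat, 50.6% of the cKO high-fat and 28.6% of the batch 2 cells. Cells with all 30 neighbours inside cluster 6 were 328 of 763 in the control normal-diet library (43.0%, interval 39.4 to 46.6%), 131 of 437 in the control high-fat library (30.0%, 25.7 to 34.5%), 62 of 241 in the cKO high-fat library (25.7%, 20.3 to 31.7%) and 7 of 28 in batch 2 (25%, 10.7 to 44.9%). Both high-fat libraries thus had a larger share of their cluster 6 cells beside cluster 5, and a smaller share in the interior, than the control normal-diet library. The interior share of batch 2 was as low as theirs, though from 28 cells. Neighbours of 1 cell are also neighbours of others, so these intervals treat cells as more independent than they are.

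Delta cells were 13.5% of the neighbours of the 28 batch 2 cells, against 3.24% in the control normal-diet, 3.10% in the control high-fat and 1.52% in the cKO high-fat library. Delta cells were also 28.8% of all cells in that batch 2 library and between 5.16% and 11.8% in these other 3, and the part of this in the value was not tested. Alpha cells of cluster 8 were 4.76% of neighbours in batch 2, 3.10% in the cKO high-fat, 1.45% in the control normal-diet and 0.931% in the control high-fat library. No PP cell was among the neighbours of any cluster 6 cell.

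**Figure D4:**
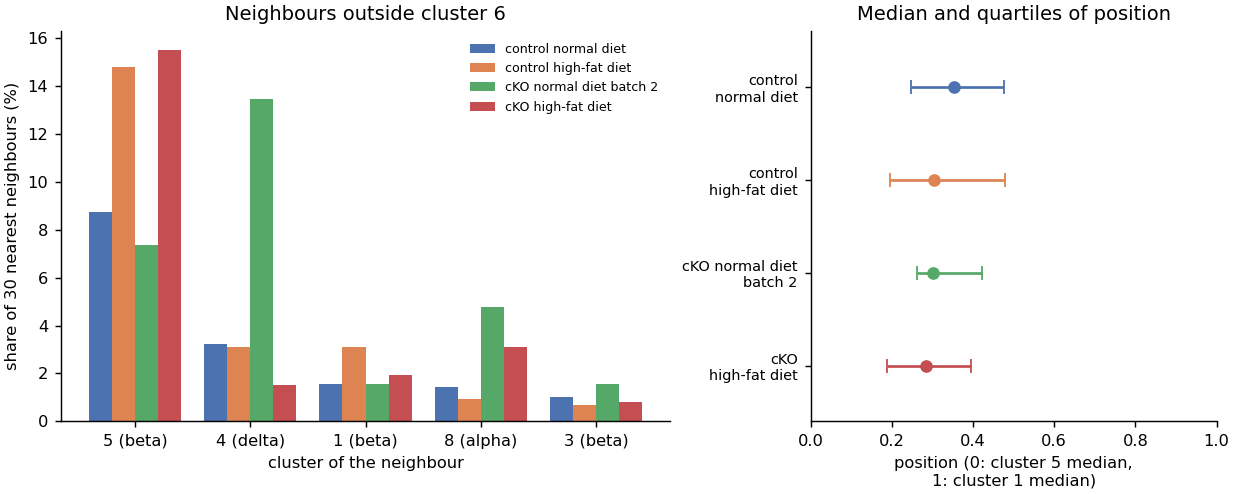
Left, share of the 30 nearest neighbours (y axis, percent) that belonged to each of 5 other clusters (x axis), for the cluster 6 cells of each library. Right, position of cluster 6 cells on the line from the median point of cluster 5 (0) to that of cluster 1 (1), with points for medians and bars for quartiles. Cluster 5 neighbours are most frequent in both high-fat libraries (14.8% and 15.5%), and the position ranges of the 4 libraries overlap.

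Position was also measured along a line between flanking clusters. On the line from the median point of cluster 5 (position 0) to that of cluster 1 (position 1), cluster 6 cells had a median position of 0.32 (quartiles 0.21 and 0.47), and 80.1% of them lay nearer the cluster 5 end. Cluster 5 cells themselves had quartiles of -0.05 and 0.06 and cluster 1 cells of 0.85 and 1.13, so the middle parts of the 3 clusters did not overlap on this line. Cells of the delta cluster 4 had quartiles of 0.43 and 0.72 on it, which overlap those of cluster 6. By library the median was 0.35 in the control normal-diet, 0.30 in the control high-fat, 0.30 in the batch 2 cKO normal-diet and 0.28 in the cKO high-fat library, a range within the quartiles of each library. On the line from cluster 5 to the delta cluster 4, the 2 clusters with the most neighbours outside cluster 6, the median was also 0.32, with 0.34 in the control normal-diet, 0.32 in the control high-fat, 0.39 in the batch 2 and 0.24 in the cKO high-fat library. This was the planned line, and that to cluster 1 was an addition. Here the cKO high-fat median (0.237) lay below the lower quartiles of the control normal-diet (0.243) and batch 2 (0.291) libraries.

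Cluster 6 was neither the tightest nor the widest beta cluster. Its spread of 1.64 units (quartiles of distance 1.09 and 2.47) was the third largest of the 6, below those of cluster 3 (2.53) and cluster 1 (2.15) and above those of cluster 5 (1.39), cluster 7 (1.36) and cluster 9 (1.08). Its share of own-cluster neighbours, 80.3%, was the fourth, below cluster 1 (90.0%), cluster 5 (88.7%) and cluster 7 (87.6%) and above cluster 9 (64.4%) and cluster 3 (53.6%). By library the spread around the library's own median point was 1.28 in the cKO high-fat, 1.62 in the control normal-diet, 1.79 in the control high-fat and 2.44 in the batch 2 cKO normal-diet library, the last from 28 cells. The cKO high-fat cells thus had the smallest median distance, although their upper quartile, 2.29, was near the 2.31 of control normal diet. Their median point lay 0.634 units from that of the whole cluster, toward lower values on both axes, whereas the other libraries lay 0.259 to 0.370 units from it.

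A small part of cluster 6 lay apart from its main body. When cells within 0.3 units of each other were linked, 1382 of the 1469 cells (94.1%) formed 1 piece and the other 87 cells fell into 26 smaller pieces. Cells outside the main piece were 44 of 763 (5.77%) in the control normal-diet, 14 of 437 (3.20%) in the control high-fat, 24 of 241 (9.96%) in the cKO high-fat and 5 of 28 (17.9%) in the batch 2 library. The largest of the smaller pieces had 25 cells, among alpha cells of cluster 8, which made up 58.1% of their neighbours. Of these 25 cells 15 came from the cKO high-fat library, 7 from control normal diet, 2 from control high-fat diet and 1 from batch 2. That is 6.22% (3.53 to 10.1%) of the cluster 6 cells of the cKO high-fat library, against 0.917% (0.370 to 1.88%) in the control normal-diet and 0.458% (0.0555 to 1.64%) in the control high-fat library. With cells linked within 0.5 units this piece had 27 cells, 15 of them again from the cKO high-fat library, and with 0.2 units it was not among the 3 largest pieces. The next piece at 0.3 units, of 16 cells, lay among delta cells, which gave 64.4% of its neighbours. It held 8 control normal-diet, 4 control high-fat, 4 batch 2 and 0 cKO high-fat cells. Droplets that held 2 cells were not called here, and their part in these pieces was not tested.

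Cells with most of their 30 neighbours in other clusters numbered 229 of 1469 (15.6%). Cluster 5 led among the outside neighbours of 132 of them, delta cluster 4 of 53, cluster 1 of 22 and alpha cluster 8 of 18. They were 102 of 763 (13.4%, 11.0 to 16.0%) in the control normal-diet, 82 of 437 (18.8%, 15.2 to 22.7%) in the control high-fat, 38 of 241 (15.8%, 11.4 to 21.0%) in the cKO high-fat and 7 of 28 (25%, 10.7 to 44.9%) in the batch 2 library, where delta cluster 4 led for 5 of the 7. Seen from the other side, cluster 6 gave 9.84% of the neighbours of cluster 5 cells and 0.643% of those of cluster 1 cells. For cluster 5 cells this was 14.6% in the control normal-diet, 6.54% in the control high-fat and 10.6% in the cKO high-fat library, so the cluster 5 cells of the control high-fat library were the farthest from cluster 6 by this measure among these 3 libraries.

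Inside cluster 6, cells of the 2 control libraries had own-library neighbours nearly in proportion to numbers, and cells of the cKO libraries had them above proportion. For each cell the share of its 30 nearest cluster 6 neighbours from its own library was divided by that library's share of the remaining cluster 6 cells, so that 1 stands for neighbours drawn in proportion to numbers. The ratio was 1.08 in the control normal-diet library (56.1% observed, 51.9% expected), 1.13 in the control high-fat library (33.6% and 29.7%) and 1.60 in the cKO high-fat library (26.2% and 16.3%). For the 28 batch 2 cells it was 2.46 (4.52% and 1.84%), and 4.14 with 15 neighbours, so it rests on few cells. The highest value the ratio can take is larger where the expected share is smaller. The ratios therefore do not rank the libraries by mixing. For cKO high-fat cells, neighbours from control mice on normal diet occurred at 0.799 of their expected frequency, and neighbours from control mice on high-fat diet at 1.02. Between the 2 control libraries the ratios were 0.959 and 0.932.

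**Figure D5:**
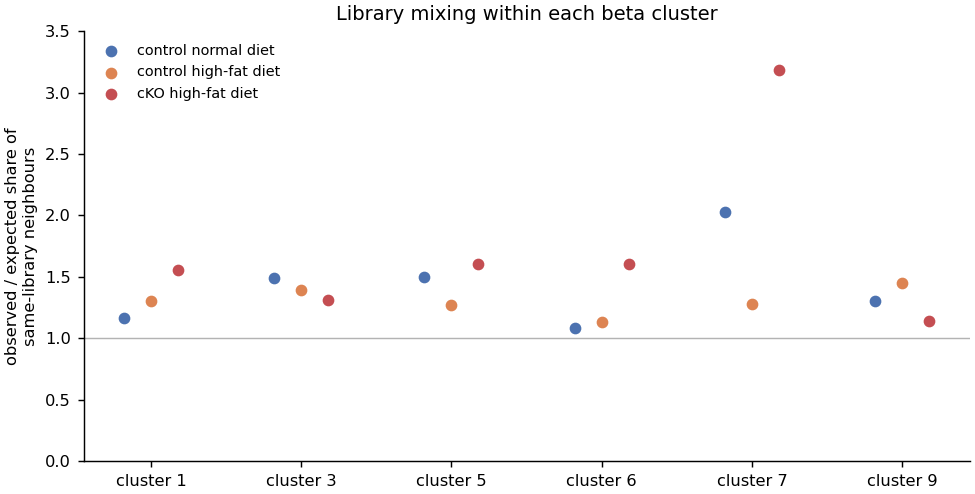
Observed over expected share of same-library neighbours (y axis, 1 marks proportional mixing) within each of the 6 beta clusters (x axis), for the 3 libraries with the most beta cells. In cluster 6 the control libraries lie at 1.08 and 1.13 and the cKO high-fat library at 1.60, whereas cluster 7 reaches 3.19 in the cKO high-fat library. The highest value the ratio can take falls as a library's share of the cluster rises.

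Among the 6 beta clusters, cluster 6 had the lowest same-library ratio for both control libraries, a ranking limited by the expected shares given below. The control normal-diet ratio was 1.17 in cluster 1, 1.49 in cluster 3, 1.501 in cluster 5, 2.02 in cluster 7 and 1.30 in cluster 9. The control high-fat ratio ranged from 1.27 in clusters 5 and 7 to 1.45 in cluster 9 over the same 5 clusters. For the cKO high-fat library cluster 6, at 1.60, was close to clusters 1 (1.56) and 5 (1.60), below cluster 7 (3.19) and above clusters 3 (1.31) and 9 (1.14). The highest value this ratio can take falls as the expected share rises. That share was 16.3% in cluster 6, 44.8% in cluster 3 and 73.3% in cluster 9, where 26.2%, 58.6% and 83.6% were observed. The order against clusters 3 and 9 is therefore not a ranking of mixing. The same limit applies to the control ratios wherever the expected share was lower than in cluster 6. That was so for control normal diet in clusters 3, 5, 7 and 9, and for control high-fat diet in cluster 9. For control normal diet, 51.9% was expected and 56.1% observed in cluster 6, against 10.6% and 13.8% in cluster 9. The shift of the median point between the control libraries of the 2 diets was 0.276 times the cluster's spread in cluster 6, against 0.350 to 0.844 in the other 5 beta clusters. Between the control normal-diet and the cKO high-fat library the shift was 0.544 times the spread in cluster 6, and 0.338 (cluster 5) to 1.71 (cluster 7) in the others. These ratios are descriptions of single libraries and carry no test.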

How the data were processed

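Single-cell RNA libraries of mouse islets (10x Genomics 5′ chemistry, per the labels' protocols) were represented by 4 deposited tables. The authors assigned each cell a library, a cell type name, a cluster number and a pair of UMAP coordinates, and these coordinates are the deposited score analysed here. They are not expression values. Reads were processed with Cell Ranger 7.1.0 on build GRCm39, per the submitters' processing notes. The sources used here do not give the filters on cells, doublet treatment, integration, clustering settings or naming rule, which fix which cells count as cluster 6.

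Tables were joined by cell identifier (Python 3.11.15, pandas 2.3.3, scipy 1.17.1). Library names were matched to sample titles by genotype and diet, and the number in the cKO normal-diet names was read as the batch. Depth per cell is unknown, so precision is set by cell numbers. Shares have exact binomial intervals, and a share of 0 a limit of 3 cells. Log2 ratios of shares have delta-method counting intervals, to which a share of 0 adds no variance. Cell ratios have exact conditional binomial intervals. For cKO mice on normal diet, shares were averaged over both libraries with equal weight, and cell ratios used batch 2. Intervals of log2 share ratios between single libraries, and the permutation test, were checked on simulated data. Intervals for the mean of 2 libraries, odds, the ratio of diet ratios and cell ratios were not. No gene was named from values, since the tables hold none. The neighbouring clusters were the 2 with the largest share of outside neighbours, and clusters 1 and 5 came with the definition of the cells. The cluster, the comparisons and the lists were chosen with earlier results of these data known. Alternatives were other denominators, odds, other handling of the cKO normal-diet libraries, 15 or 60 neighbours and other reference points.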

Additional observations from a re-analysis of the deposited data

Results flagged for a closer look

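On normal diet both cKO libraries had a smaller cluster 6 share of beta cells than the control library (0 of 31 and 11.9%, against 17.3%), and on high-fat diet the cKO library had a larger one (11.5% against 9.03%). The shares of beta cells thus differed between genotypes in opposite directions on the 2 diets, with a log2 ratio of ratios of 1.90 (1.34 to 2.45). This interval leaves out the counting error of the 0 of 31. The log2 ratio of ratios was 1.04 (0.25 to 1.82) with the 0 set to 3 cells. With batch 2 alone it was 0.90 (0.34 to 1.45). The normal-diet log2 ratio of shares, cKO over control, was -0.69 (-1.44 to 0.07) with the 0 set to 3 cells, which includes no difference. Per cell of another beta cluster, the batch 2 over control log2 ratio on normal diet depended on that cluster. It was 0.03 for cluster 1, 0.83 for cluster 5 and 1.59 for cluster 7, but -3.18 for cluster 3 and -4.14 for cluster 9. The difference between the diets was not tested, since 3 of the 4 groups had 1 library.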

How the results depend on the processing

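Of 98 alternative values for 25 results, 76 belong to values with an interval or spread: 50 stayed within it, 25 lay outside it and 1 changed direction. The other 22 belong to both permutation tests over libraries, where 18 kept the direction and 4 changed it, and none could pass the threshold. Embedding values were judged against the SD between libraries, for example 5.47 points around a cluster 4 neighbour share of 3.11%. Staying within so wide a spread says little about stability. Apart from the batch 2 same-library ratio with 15 neighbours, the values outside were all log2 ratios of shares or of cell ratios. Summing could not change cells of cluster 6 per cell of cluster 1, since batch 1 of cKO normal diet had neither. The order of values below is cKO over control on high-fat diet, cKO over control on normal diet, control diet ratio, cKO diet ratio and ratio of diet ratios, all log2. With all cells as denominator these were 0.57, -2.82, -0.54, 2.84 and 3.38. With endocrine cells the last 4 were -2.75, -0.51, 2.77 and 3.28. Without cluster 9 the first was 0.71, and without clusters 3 and 9 the first 4 were 1.57, -0.80, -0.72 and 1.65. The normal-diet genotype ratio, the cKO diet ratio and the ratio of diet ratios were -0.55, -0.043 and 0.90 without the batch 1 cKO normal-diet library, -0.72, 0.13 and 1.07 with both such libraries summed, and -0.69, 0.10 and 1.04 with the 0 of 31 set to 3 cells. The last setting, and leaving out libraries other than the cKO normal-diet ones, were chosen after seeing the data. Without the batch 2 library these ratios could not be formed. Summed libraries gave log2 ratios of -0.56 (normal diet, cKO over control) and 1.30 (cKO diets) for cells of cluster 6 per cell of cluster 5. The difference between cKO and control libraries became 3.30 points without clusters 3 and 9. It ranged from -9.52 (without control high-fat) to -1.23 (without control normal diet) as each library was left out. As each library was left out the difference between diets ranged from -4.32 (without batch 1 cKO normal diet) to 4.34 (without control normal diet). It was 4.05 over all cells, 4.25 over endocrine cells, 8.94 without clusters 3 and 9, -0.70 without the cKO high-fat library, and was -2.68 with the 0 set to 3 cells. With 15 neighbours the batch 2 same-library ratio was 4.14. The cause of these changes was not tested, apart from fewer cells or libraries. No paired analysis was possible because the labels give no pairing of libraries between groups. Batch 2 held 1 group only, and its 28 cluster 6 cells limit every value taken from it.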
